A study of Mus musculus with 18 samples.

Results

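The acute phase protein genes described here are Saa1, Saa2, Saa3 and Saa4 (serum amyloid A), Orm1, Orm2 and Orm3 (orosomucoid), Hp (haptoglobin), Hpx (hemopexin) and Lcn2 (lipocalin 2). They were taken by gene symbol from the table of liver transcripts and they are 10 of the 35441 genes in it. Each of the 10 had enough reads to be tested, as did 14535 genes in all. RNA was measured by poly(A) RNA-seq in pieces of frozen whole liver from 18 male mice, 3 in each of 6 groups. Wild-type (WT) mice, Lipa-/- mice and Lipa-/- mice given the vector rAAV8.hAAT.LIPA were compared at 12- and at 34-weeks post-injection, to ask how loss of lysosomal acid lipase changed liver gene expression and what the vector did to those changes.

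Lipa-/- mice carried a deletion of exon 4 of Lipa, made in the Lipa tm1a (EUCOMM) allele with Cre expressed from the CMV promoter, on a C57/BL6N background, and both Lipa-/- groups shared it. Treated mice had received the vector at what the study calls its middle dose, into the tail vein at 10 to 12 weeks of age, an adeno-associated virus with the human LIPA cDNA and a 3xHA tag under the hAAT promoter, which is active in hepatocytes, while WT and Lipa-/- mice were untreated. The labels give 3 and 8 months for the 2 time points. According to the methods of the study, 1 Lipa-/- mouse of the long follow-up was still alive at 34 weeks, and the others had been killed earlier at ethical endpoints, so the time label of this group is nominal. The samples of 34-weeks carry 1 study code and those of 12-weeks carry another, except Lipa-/- mouse 5 at 12-weeks, which carries yet another, and time and study code cannot be told apart.

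The acute phase response is the change in the proteins that the liver secretes into plasma during infection, injury or chronic inflammation. Interleukin-6 and related cytokines act on hepatocytes through STAT3, and interleukin-1 and tumour necrosis factor act through NF-kB and C/EBP factors, to raise positive acute phase proteins while albumin and transthyretin fall. Serum amyloid A proteins travel on high-density lipoprotein, orosomucoids bind lipids and drugs, haptoglobin and hemopexin carry free haemoglobin and haem, and lipocalin 2 binds the siderophores with which bacteria take up iron.

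Libraries held 17527848 to 25833134 reads assigned to genes. Mouse Lipa itself was at 201.8 to 323.2 CPM (reads scaled to the effective size of each library) in the 6 WT mice, 16.7 to 33.4 CPM in the 6 Lipa-/- mice and 29.1 to 37.0 CPM in the 6 treated mice, and the human transgene was not analysed here. None of 10 hepatocyte markers was at 0 in any mouse.

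The 4 serum amyloid genes lie beside each other on chromosome 7 in GRCm39, the build that the study used, as annotated by GENCODE. Saa3 (ENSMUSG00000040026) is at chr7:46361422-46365576 and Saa4 (ENSMUSG00000040017) at chr7:46377406-46382035, both on the minus strand. Saa1 (ENSMUSG00000074115) at chr7:46389916-46392547, minus strand, and Saa2 (ENSMUSG00000057465) at chr7:46401214-46403737, plus strand, are turned away from each other. Orm1 (ENSMUSG00000039196, chr4:63261052-63272189), Orm3 (ENSMUSG00000028359, chr4:63274208-63277748) and Orm2 (ENSMUSG00000061540, chr4:63280686-63284115) follow each other on the plus strand of chromosome 4. Hpx (ENSMUSG00000030895, chr7:105240817-105249344), Hp (ENSMUSG00000031722, chr8:110301759-110305804) and Lcn2 (ENSMUSG00000026822, chr2:32274645-32278264) are single genes on the minus strand.

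Upstream sequences are shown for the 6 inducible members that move most below, because Saa1 and Saa2, and Orm2 and Orm3, share most of theirs. The RefSeq table of promoters (build GRCm38.p6) held 8 of the 10 members, and Orm1 and Hp were not among them. Each line gives the 250 bases before the annotated start, 5′ to 3′ on the strand of the gene, with letters that match TTNNGCAA, a C/EBP motif, on either strand in capitals.
Saa1 (chr7:46742981-46743230, minus strand): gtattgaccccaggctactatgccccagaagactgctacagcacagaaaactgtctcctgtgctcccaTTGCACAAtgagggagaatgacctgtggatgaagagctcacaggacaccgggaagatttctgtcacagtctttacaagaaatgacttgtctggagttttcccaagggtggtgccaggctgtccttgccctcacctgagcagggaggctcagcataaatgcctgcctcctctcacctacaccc
Saa2 (chr7:46751583-46751832, plus strand): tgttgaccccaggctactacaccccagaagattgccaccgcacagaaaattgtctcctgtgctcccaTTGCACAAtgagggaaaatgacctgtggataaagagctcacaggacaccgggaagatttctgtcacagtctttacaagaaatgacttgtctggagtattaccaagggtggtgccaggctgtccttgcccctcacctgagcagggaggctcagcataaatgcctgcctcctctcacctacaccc
Saa3 (chr7:46715677-46715926, minus strand): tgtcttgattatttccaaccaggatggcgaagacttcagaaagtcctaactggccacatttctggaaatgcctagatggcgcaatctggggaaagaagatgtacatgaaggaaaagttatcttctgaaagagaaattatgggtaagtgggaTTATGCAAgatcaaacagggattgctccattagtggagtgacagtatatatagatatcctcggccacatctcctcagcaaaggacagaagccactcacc
Orm2 (chr4:63362199-63362448, plus strand): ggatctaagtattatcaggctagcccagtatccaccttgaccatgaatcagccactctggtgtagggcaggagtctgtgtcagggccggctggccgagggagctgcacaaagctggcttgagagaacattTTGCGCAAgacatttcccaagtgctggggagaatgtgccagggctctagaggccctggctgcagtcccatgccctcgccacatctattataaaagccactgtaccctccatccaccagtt
Orm3 (chr4:63355908-63356157, plus strand): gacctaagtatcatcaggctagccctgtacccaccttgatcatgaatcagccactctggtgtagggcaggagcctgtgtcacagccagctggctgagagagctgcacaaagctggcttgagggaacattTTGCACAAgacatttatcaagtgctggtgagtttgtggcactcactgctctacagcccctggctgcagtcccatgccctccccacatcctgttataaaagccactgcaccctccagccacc
Lcn2 (chr2:32387740-32387989, minus strand): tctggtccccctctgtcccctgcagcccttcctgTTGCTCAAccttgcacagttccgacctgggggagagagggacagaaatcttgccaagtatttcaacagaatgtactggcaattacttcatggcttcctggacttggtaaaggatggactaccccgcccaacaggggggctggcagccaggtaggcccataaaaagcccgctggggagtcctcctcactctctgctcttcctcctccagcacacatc
The windows of Saa1 and Saa2 were identical in 238 of 251 aligned columns (94.8%), and those of Orm2 and Orm3 in 219 of 255 (85.9%). Saa1 and Saa3 matched in 50.2% of columns, close to the 52.1% of the unrelated pair Saa1 and Orm2. The motif TTNNGCAA was found in all 8 windows, also in those of Saa4 and Hpx, against 9.56% of the 32851 windows of this length in the table. In Orm2 it was a palindrome, read the same on both strands, 113 to 120 bases before the start, and in Saa3 it lay 92 to 99 bases before it. The STAT palindrome TTCNNNGAA (7.02% of all windows), the interleukin-6 element CTGGGAA (9.10%) and an NF-kB consensus (7.25%) had no match in the 8 windows, on either strand. These matches describe the letters and no factor was measured at these sites.

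Levels in the WT liver spanned a wide range. In TPM, the share of transcripts after division by their length, the mean level of WT mice at 12-weeks was 2379 ± 362 (SD, n = 3) for Hpx, 1806 ± 210.4 for Hp and 1698 ± 119 for Orm1. The mice overlapped between Hpx and Hp, between Hp and Orm1, and between Saa1 (139 ± 29.7 TPM) and Saa4 (128 ± 38.6 TPM), which came next. Saa2 (36.1 ± 4.83), Orm2 (19.8 ± 5.79), Saa3 (9.53 ± 4.13), Orm3 (4.68 ± 3.13) and Lcn2 (3.43 ± 2.01) were low. In Lipa-/- mice at 12-weeks the order was Hp (14398 ± 2788 TPM), Hpx (12137 ± 1703), Orm1 (5022 ± 2109), Saa2 (4765 ± 5781), Saa1 (4120.0 ± 3991), Lcn2 (3330.2 ± 1411) and Orm2 (2350.0 ± 1542). Lcn2 and Orm2, among the lowest in WT mice, thereby reached the range of Saa1, and the mice of all these neighbours overlapped except between Hpx and Orm1. Together the 10 genes took 0.547 to 1.56% of all reads in the 6 WT mice and 2.84 to 5.43% in the 6 Lipa-/- mice.

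Values per mouse are given in CPM after TMM scaling, which sets the effective depth of each library, and differences are log2 values with their standard error (SE). A gene was called where the adjusted p of edgeR's quasi-likelihood test was under 0.05 and the log2 difference at least 1 in size. At 12-weeks loss of Lipa went with higher levels of 8 of the 10 members and lower levels of none, beside 20.2% of all tested genes called higher. Their median log2 difference was 4.00, against 0.02 over all genes. In 9 of the 10 every Lipa-/- mouse lay above every WT mouse, as was so for 28.6% of all genes. At 34-weeks 5 members were higher (20.5% of all genes) and 1 was lower (15.7%), with a median of 1.68 against -0.03 over all genes, and the groups of 4 members did not overlap in the higher direction (30.5%). Whole liver holds several cell types, and fewer cells of a type and less RNA per cell cannot be told apart in it.

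**Figure D1:**
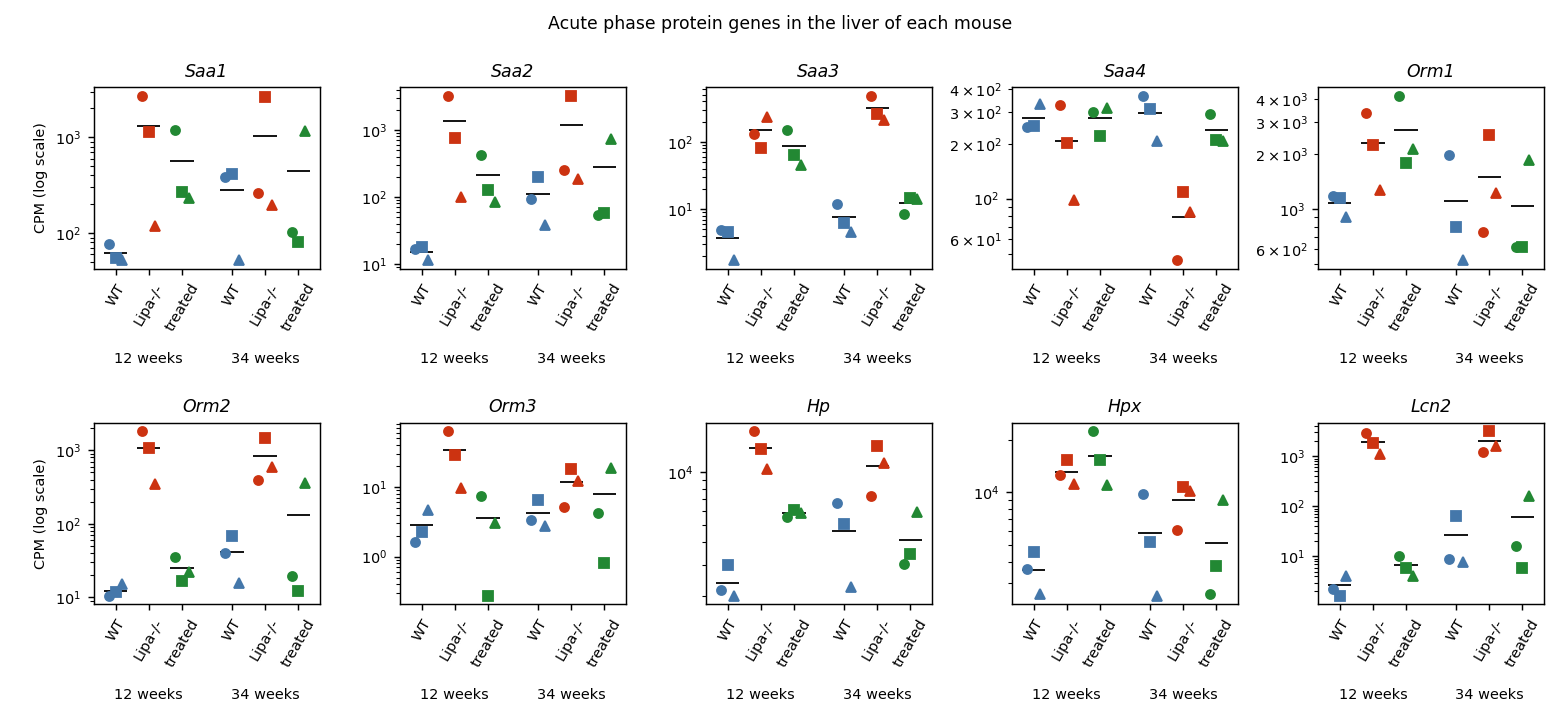
Level of each of the 10 genes in each mouse, in CPM on a log axis, by group and time point. Symbols within a group are single mice in ascending order of mouse number, and black lines are group means. Lcn2 of the 6 Lipa-/- mice sits above all WT and treated mice, and Orm2 does so except that treated mouse 12 at 34-weeks (365 CPM) lies above Lipa-/- mouse 9 at 12-weeks (351 CPM), while Saa4 and Orm1 overlap between most groups.

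Lcn2 changed most. It was at 2.25, 1.63 and 4.03 CPM in WT mice 1, 2 and 3 at 12-weeks and at 2877, 1800.0 and 1106 CPM in Lipa-/- mice 5, 8 and 9. The lowest Lipa-/- mouse was thus far above the highest WT mouse, and the log2 difference was 9.51 ± 1.35 (SE; adjusted p = 3.53e-05). At 34-weeks WT mice 1, 2 and 3 had 8.79, 63.0 and 7.59 CPM and Lipa-/- mice 4, 5 and 6 had 1211, 3174 and 1585 CPM. WT mouse 2 stood apart from the other WT mice, and the difference of 6.23 ± 1.16 (adjusted p = 0.000321) was 7.93 when it was left out. The change of the difference between the time points, -3.28 ± 1.37, was not called (adjusted p = 0.436).

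Orm2 was the only orosomucoid called at both time points. WT mice had 10.4, 11.7 and 14.97 CPM at 12-weeks and Lipa-/- mice 5, 8 and 9 had 1829, 1062 and 351 CPM, a log2 difference of 6.45 ± 1.18 (adjusted p = 0.000383). At 34-weeks the values were 40.6, 68.4 and 15.7 CPM in WT mice and 400.1, 1486 and 602 CPM in Lipa-/- mice 4, 5 and 6, without overlap, and the difference was 4.32 ± 1.06 (adjusted p = 0.0031). Orm3, a much less abundant copy, went from 1.61 to 4.66 CPM in WT mice to 9.62 to 62.9 CPM in Lipa-/- mice at 12-weeks (3.57 ± 1.02, adjusted p = 0.0104) and overlapped at 34-weeks (1.496 ± 0.946, adjusted p = 0.208). Orm1, the main orosomucoid of the WT liver, had 908 to 1183 CPM in WT mice and 1269.6 to 3358 CPM in Lipa-/- mice at 12-weeks. Its groups did not overlap, yet the difference of 1.09 ± 0.577 missed the threshold (adjusted p = 0.148), and at 34-weeks it was 0.45 ± 0.571 (adjusted p = 0.544). At 12-weeks Orm1 was called without TMM factors (1.57, adjusted p = 0.0254), on log2(TPM + 1) with limma (1.47, adjusted p = 0.0237) and when only these groups were fitted (1.09, adjusted p = 0.0418). At 34-weeks Orm1 was called on log2(TPM + 1) with limma (1.21, adjusted p = 0.0437).

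The balance within the family differed accordingly. For each read of Orm1, WT mice had 0.00877 to 0.0165 reads of Orm2 at 12-weeks and 0.0204 to 0.0857 at 34-weeks, whereas Lipa-/- mice had 0.276 to 0.545 and 0.489 to 0.584. Library size cancels in this ratio, and the 6 Lipa-/- mice lay above the other 12 mice. Of the 31-base runs of the main Orm2 transcript 35.03% also occur in transcripts of other genes, and 28.5% of all its runs occur in Orm1, so the split of reads between the copies rests on the model that assigned them. The sum of the 3 genes, which does not depend on that split, was 1094 ± 146 CPM (SD, n = 3) in WT and 3410 ± 1811 CPM in Lipa-/- mice at 12-weeks, a log2 difference of 1.64 ± 0.62 (adjusted p = 0.0451), and at 34-weeks it was 1.03 ± 0.611 (adjusted p = 0.178).

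**Figure D2:**
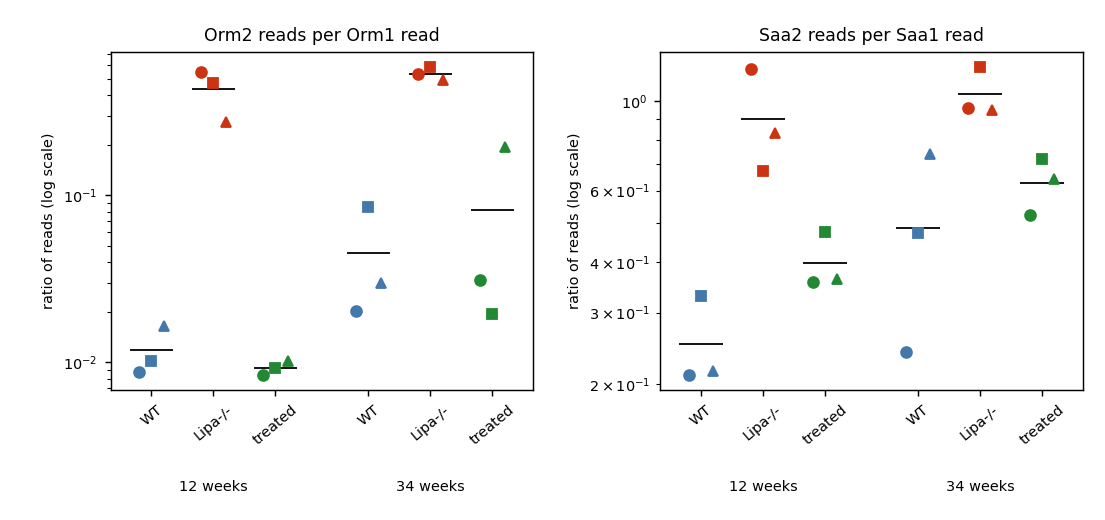
Reads of Orm2 per read of Orm1 (left) and of Saa2 per read of Saa1 (right) in each mouse, on log axes, with group means as black lines. The Orm2 ratio of the Lipa-/- mice was 0.276 to 0.584, above that of all WT and treated mice, of which treated mouse 12 at 34-weeks (0.196) was the highest.

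Saa1 and Saa2 encode the acute phase serum amyloids secreted by hepatocytes, and both varied widely among Lipa-/- mice. Saa2 had 16.4, 17.98 and 11.2 CPM in WT mice at 12-weeks and 3271, 763 and 99.99 CPM in Lipa-/- mice 5, 8 and 9. Saa1 had 77.9, 54.7 and 52.1 CPM in the same WT mice and 2723, 1137 and 119.9 CPM in the same Lipa-/- mice. Mouse 5 was far above mouse 9 for both, and the latter was close to the WT range for Saa1. The log2 differences were 6.50 ± 1.53 for Saa2 (adjusted p = 0.00293) and 4.43 ± 1.35 for Saa1 (adjusted p = 0.0153). Without mouse 5 that of Saa2 was 4.83 (adjusted p = 0.0127). Saa1 lost its call without mouse 5 (3.35, adjusted p = 0.0606), the mouse with a study code of its own, or without WT mouse 2 (4.35, adjusted p = 0.0527) or WT mouse 3 (4.32, adjusted p = 0.054).

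At 34-weeks Saa2 was called although its groups overlapped or nearly met. It had 91.6, 196 and 38.5 CPM in WT mice 1, 2 and 3 and 251, 3179 and 186 CPM in Lipa-/- mice 4, 5 and 6. Lipa-/- mouse 6 lay below WT mouse 2, and the log2 difference of 3.47 ± 1.32 (adjusted p = 0.0401) fell to 1.01 (adjusted p = 0.521) without Lipa-/- mouse 5. The call was also lost without WT mouse 1 (3.36, adjusted p = 0.105) or WT mouse 3 (3.07, adjusted p = 0.121). Saa1 had 383, 415 and 51.95 CPM in WT mice against 262, 2629.6 and 196 CPM in Lipa-/- mice. Its difference of 1.86 ± 1.21 was not called (adjusted p = 0.221) and changed sign, to -0.31, without mouse 5. The main transcripts of Saa1 and Saa2 share 23.8 and 28.3% of their 31-base runs, and the sum of the pair gave 5.14 ± 1.42 (adjusted p = 0.00838) at 12-weeks and 2.51 ± 1.26 (adjusted p = 0.111) at 34-weeks.

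Saa3 is the serum amyloid made outside hepatocytes as well, above all by macrophages and fat, and it shares 3.07% of its runs with other genes. It had 4.87, 4.59 and 1.73 CPM in WT mice at 12-weeks and 129, 81.9 and 231 CPM in Lipa-/- mice 5, 8 and 9. At 34-weeks it had 11.9, 6.30 and 4.63 CPM in WT mice and 485, 262 and 207 CPM in Lipa-/- mice 4, 5 and 6. All Lipa-/- mice lay above all WT mice, and the log2 differences were 5.30 ± 0.61 (adjusted p = 4.43e-06) and 5.39 ± 0.607 (adjusted p = 2.58e-06). It was highest in mouse 9 at 12-weeks and in mouse 4 at 34-weeks, the mice in which 9 and 7 of the 10 members were lowest.

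Saa4 encodes the constitutive serum amyloid of plasma and was the only member that fell. It had 246, 249.8 and 330.2 CPM in WT mice and 325, 202 and 98.9 CPM in Lipa-/- mice 5, 8 and 9 at 12-weeks. These values overlapped, and the difference of -0.40 ± 0.372 was not called (adjusted p = 0.421) and was 0.06 without TMM factors. At 34-weeks it had 368, 309 and 207 CPM in WT mice and 45.8, 109 and 84.4 CPM in Lipa-/- mice 4, 5 and 6, without overlap, a log2 difference of -1.89 ± 0.384 (adjusted p = 0.000689). The change between the time points, -1.49 ± 0.528, was not called (adjusted p = 0.347).

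The carriers of haemoglobin and haem were abundant in all mice and rose less. Hp had 2157, 2974 and 1995 CPM in WT mice and 16988, 13393 and 10438 CPM in Lipa-/- mice 5, 8 and 9 at 12-weeks. The difference was 2.52 ± 0.41 (adjusted p = 0.000135), with no overlap. At 34-weeks WT mice had 6637, 5114 and 2248 CPM and Lipa-/- mice 4, 5 and 6 had 7331, 13968 and 11172 CPM, and the difference was 1.21 ± 0.393 (adjusted p = 0.0177). This call was lost without WT mouse 3 (0.88, adjusted p = 0.0795) or Lipa-/- mouse 5 (0.99, adjusted p = 0.0777), and when only these groups were fitted (1.26, adjusted p = 0.0661). Hpx had 3645, 4518 and 2600.2 CPM in WT mice and 12547, 15342 and 11162 CPM in Lipa-/- mice at 12-weeks, a difference of 1.86 ± 0.51 (adjusted p = 0.00811). At 34-weeks its groups overlapped in CPM and the difference was 0.62 ± 0.496 (adjusted p = 0.321). In TPM the Lipa-/- mice (9160 to 12258) lay above the WT mice (2265 to 5696) for Hpx at that time. Without TMM factors, which moved the median of all genes by 0.63 in this comparison, Hpx was called (1.30, adjusted p = 0.0235). It was also called on log2(TPM + 1) with limma (1.47, adjusted p = 0.00723).

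**Figure D3:**
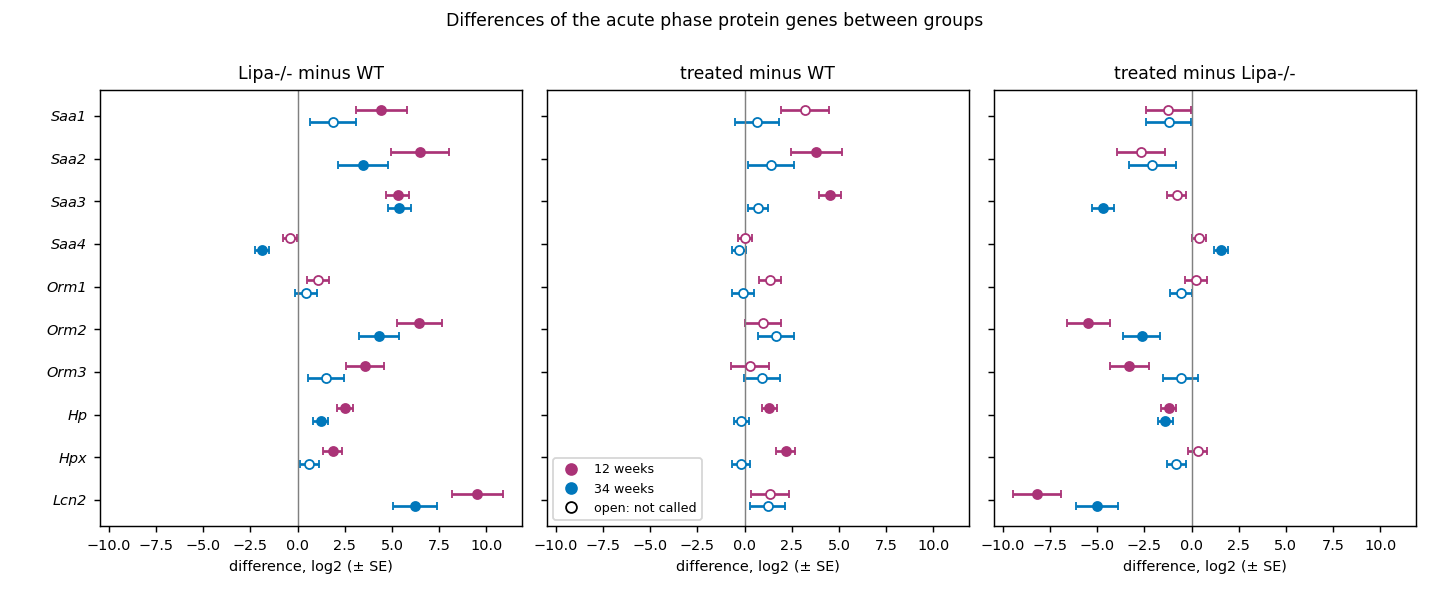
Log2 difference of each gene between groups, with its SE as a bar, at 12-weeks (upper symbol of each pair) and 34-weeks (lower symbol); filled symbols were called. In the left panel Lcn2 reaches 9.51 and 6.23 and Saa4 falls by 1.89 at 34-weeks, and in the middle panel all 34-week symbols are open.

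Tests of whether the difference between Lipa-/- and WT mice changed from 12- to 34-weeks called none of the 10 members, while 0.0619% of all genes were called in either direction. DESeq2 called none either, and 3 members (Saa4, Hp and Lcn2) had an unadjusted p under 0.05. Between time points, no member was called in WT mice (0.323% of all genes) or in Lipa-/- mice (0.495%). In WT mice Saa2, Hp and Lcn2 had an unadjusted p under 0.05 and DESeq2 called no member, and in Lipa-/- mice the corresponding genes were Saa3 and Saa4, of which DESeq2 called Saa4.

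Among treated mice at 12-weeks the 10 genes did not follow each other. Against WT mice, Saa2, Saa3, Hp and Hpx were called higher, 4 of 10 beside 13.6% of all genes, and the median was 1.33 against 0.06 over all genes. Against untreated Lipa-/- mice, Orm2, Orm3, Hp and Lcn2 were called lower, 4 of 10 beside 25.3% of all genes, with a median of -1.22 against -0.19. TMM factors were 0.587 to 0.759 in these 3 treated mice and 1.16 to 1.23 in the Lipa-/- mice of that time, and without them the median of all genes moved by -0.39 against WT and by -0.87 against Lipa-/- mice, so small differences depended on the scaling. Without TMM factors 2 members (Saa3 and Hpx) were called against WT mice. Comparisons of treated mice with WT mice and of Lipa-/- mice with WT mice share the WT mice.

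Lcn2 and Orm2 were near the WT level in treated mice at 12-weeks. Lcn2 had 10.3, 5.76 and 4.06 CPM in treated mice 10, 11 and 12, the last barely above the highest WT mouse (4.03 CPM), and in TPM these groups overlapped. The log2 difference from WT mice was 1.34 ± 1.01 (adjusted p = 0.303). From Lipa-/- mice it was -8.18 ± 1.27 (adjusted p = 8.79e-05). Orm2 had 35.4, 16.6 and 21.8 CPM, likewise all above the WT mice (0.99 ± 0.955, adjusted p = 0.424) and far below all Lipa-/- mice (-5.46 ± 1.13, adjusted p = 0.000836). In TPM the treated mice (20.4 to 29.8) and the WT mice (16.1 to 26.5) overlapped for Orm2 as well. Orm3 had 7.48, 0.272 and 2.99 CPM, within or around the WT range, and was below Lipa-/- mice by -3.29 ± 1.02 (adjusted p = 0.0127), a call that was lost without Lipa-/- mouse 5 (-2.48, adjusted p = 0.0622).

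Saa3 and Hpx stayed above the WT level in treated mice at 12-weeks. Saa3 had 147, 64.0 and 45.0 CPM in treated mice 10, 11 and 12, all above WT mice (4.51 ± 0.59, adjusted p = 0.000654). In CPM they overlapped with Lipa-/- mice (-0.79 ± 0.504, adjusted p = 0.194). In TPM they had 208, 134 and 72.8 of Saa3, between the WT range of 4.80 to 12.5 and the Lipa-/- range of 308 to 889, without overlap. Without TMM factors the difference from Lipa-/- mice was called (-1.72, adjusted p = 0.00653), as it was on log2(TPM + 1) with limma (-1.98, adjusted p = 0.00214) and without treated mouse 10 (-1.47, adjusted p = 0.0359). Hpx had 22431, 15294 and 11017 CPM against 2600.2 to 4518 CPM in WT mice, a difference of 2.18 ± 0.516 (adjusted p = 0.0072). In TPM these mice had 8007, 7902 and 4573, between the WT range of 1995 to 2712 and the Lipa-/- range of 11088 to 14102.

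Hp lay between the other groups, with 5588, 6110.2 and 5863 CPM. It was above WT mice by 1.30 ± 0.394 (adjusted p = 0.019) and below Lipa-/- mice by -1.22 ± 0.393 (adjusted p = 0.0158), without overlap in either case. The first call was lost without TMM factors (0.92, adjusted p = 0.0526), without WT mouse 1 (1.24, adjusted p = 0.0629), WT mouse 3 (1.19, adjusted p = 0.0837) or treated mouse 10 (1.26, adjusted p = 0.0575), and the second without Lipa-/- mouse 5 (-1.03, adjusted p = 0.0612). Saa1 had 1203, 266 and 235 CPM, Saa2 had 429, 126 and 85.2 CPM and Orm1 had 4199, 1793 and 2134 CPM in treated mice 10, 11 and 12, all above the WT mice of that time. The difference from WT mice was called for Saa2 (3.81 ± 1.35, adjusted p = 0.0369) and not for Saa1 (3.21 ± 1.278, adjusted p = 0.0581) or Orm1 (1.33 ± 0.58, adjusted p = 0.08), and DESeq2 called each of them. The call of Saa2 was lost without any 1 of WT mice 1, 2 and 3 (adjusted p = 0.0918, 0.0739 and 0.12) or without treated mouse 10 (2.72, adjusted p = 0.159), the mouse in which 8 of the 10 members were highest. Differences of Saa1 (-1.22 ± 1.19, adjusted p = 0.396) and Saa2 (-2.69 ± 1.2802, adjusted p = 0.0851) from Lipa-/- mice were not called, and that of Saa2 was without TMM factors (-3.65, adjusted p = 0.0235) or without Lipa-/- mouse 9 (-3.24, adjusted p = 0.0402).

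At 34-weeks no member was called between treated and WT mice. The count was 0 of 10 with edgeR beside 0.22% of all genes, a background at which 10 genes hold hardly any call. No member had an unadjusted p under 0.05 and DESeq2 called none, and the median difference was 0.69 against 0.002 over all genes. The 3 treated mice differed among themselves. Lcn2 had 16.3, 5.90 and 162 CPM in treated mice 9, 11 and 12, and Orm2 had 19.2, 12.1 and 365 CPM. Saa1 had 104, 81.3 and 1158 CPM and Saa2 had 54.4, 58.3 and 741 CPM. Mouse 12 was above all 3 WT mice of that time for these 4 genes, the other treated mice lay within or below the WT range, and mouse 12 was the highest treated mouse for 8 of the 10 members. With all mice, log2 differences from WT mice were 1.21 ± 0.941 for Lcn2, 1.67 ± 0.955 for Orm2, 0.66 ± 1.18 for Saa1 and 1.39 ± 1.23 for Saa2 (adjusted p = 0.965, 0.927, 0.984 and 0.965), and each changed sign without mouse 12, to -1.25, -1.41, -1.61 and -0.95. Reads of Orm2 per read of Orm1 were 0.0312 and 0.0195 in treated mice 9 and 11 and 0.196 in mouse 12.

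Against untreated Lipa-/- mice at 34-weeks, Saa3, Orm2, Hp and Lcn2 were called lower in treated mice (4 of 10 beside 18.6% of all genes) and Saa4 was called higher (1 of 10 beside 12.9%). Saa3 had 8.57, 14.8 and 14.0 CPM in treated mice 9, 11 and 12, a difference of -4.68 ± 0.585 (adjusted p = 1.08e-05), and mouse 12 did not stand apart. Lcn2 was lower by -5.02 ± 1.09 (adjusted p = 0.00148) and Hp by -1.38 ± 0.395 (adjusted p = 0.00966), and both differences kept their call without any single mouse of these groups, that of Lcn2 reaching -7.50 without treated mouse 12. Orm2 was lower by -2.65 ± 0.986 (adjusted p = 0.0402), which was lost without Lipa-/- mouse 5 (-1.93, adjusted p = 0.162) or treated mouse 9 (-2.14, adjusted p = 0.113) or 11 (-2.11, adjusted p = 0.107), or when only these groups were fitted (-2.68, adjusted p = 0.111), and reached -5.74 without treated mouse 12. Saa4 had 291, 210.5 and 208 CPM in treated mice, above all Lipa-/- mice (1.57 ± 0.38, adjusted p = 0.00321). Saa1 (-1.20 ± 1.19, adjusted p = 0.449), Saa2 (-2.08 ± 1.25, adjusted p = 0.2) and Hpx (-0.81 ± 0.497, adjusted p = 0.209) were not called. Without treated mouse 12 Saa2 (-4.43, adjusted p = 0.0239) and Hpx (-1.52, adjusted p = 0.0303) were, and without TMM factors Hpx was (-1.32, adjusted p = 0.025).

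From 12- to 34-weeks, Saa3 and Hpx were called lower in treated mice (2 of 10 beside 14.5% of all genes) and Lcn2 higher (1 of 10 beside 17.5%). The differences were -2.78 ± 0.539 for Saa3 (adjusted p = 0.00169), -1.67 ± 0.507 for Hpx (adjusted p = 0.0143) and 3.21 ± 1.03 for Lcn2 (adjusted p = 0.0186). That of Lcn2 was 0.78 (adjusted p = 0.435) without treated mouse 12 of 34-weeks, and it missed the threshold without treated mouse 11 (adjusted p = 0.0564) or 12 (adjusted p = 0.0588) of 12-weeks. That of Hpx was lost without treated mouse 10 (-1.33, adjusted p = 0.0685), or without treated mouse 9 (-1.35, adjusted p = 0.0718) or 11 (-1.49, adjusted p = 0.0582) of 34-weeks, and also without TMM factors (-1.001, adjusted p = 0.0691) and with limma on log2(TPM + 1) (-0.79, adjusted p = 0.129). The difference between treated and WT mice changed with time for Saa3 and Hpx, 2 of 10 called lower beside 9.82% of all genes (18.4% in either direction). It fell by 3.79 on the log2 scale for Saa3 (SE 0.754, adjusted p = 0.0237) and by 2.37 for Hpx (SE 0.708, adjusted p = 0.0332). Without TMM factors, which moved the median of all genes by 0.48 in this test, the call of Saa3 held and that of Hpx did not (-1.79, adjusted p = 0.0536). Saa3 missed the threshold without WT mouse 3 of 12-weeks (-3.45, adjusted p = 0.0668) or treated mouse 9 of 34-weeks (-3.59, adjusted p = 0.0674), and Hpx missed it in 6 of 12 fits that each left out 1 mouse (adjusted p = 0.0661 to 0.106), namely WT mice 1 and 3 and treated mouse 10 of 12-weeks, and WT mouse 1 and treated mice 9 and 11 of 34-weeks.

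The sum of 10 hepatocyte markers overlapped between groups (46445 to 57047 TPM in WT mice and 39465 to 56666 TPM in Lipa-/- mice at 12-weeks, 48188 to 53361 and 27145 to 53046 TPM at 34-weeks), although 5 and 7 of them were called lower in Lipa-/- mice. Treated mice had 24061 to 59874 TPM at 12-weeks and 49166 to 62110 TPM at 34-weeks. Treated mouse 10 at 12-weeks had the lowest hepatocyte sum of all 18 mice. The sum of 12 macrophage markers was 105 to 341 TPM in WT mice, 3932 to 9137 TPM in Lipa-/- mice, 466 to 1168 TPM in treated mice at 12-weeks and 280 to 766 TPM in those at 34-weeks. Of these markers 9 were called higher in Lipa-/- mice at each time. Timd4 was called lower at both times and Clec4f at 34-weeks, and Vsig4 was called at neither. The sum of 14 neutrophil markers was 4.09 to 17.5 TPM in WT mice, with 4 to 9 of them at 0 in each mouse, and 561 to 6207 TPM in Lipa-/- mice. In treated mice it was 12.4 to 117 TPM at 12-weeks, and 15.5, 7.35 and 2476 TPM in mice 9, 11 and 12 at 34-weeks. Mouse 12 thus had the highest neutrophil sum of all mice other than Lipa-/- mouse 9 at 12-weeks, with Ngp at 133 CPM and S100a9 at 267 CPM.

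In TPM, Saa3 moved with the macrophage sum over the groups. Treated mice at 12-weeks lay between WT and Lipa-/- mice for both. In treated mouse 12 at 34-weeks Saa3 was 45.3 TPM. That mouse had the highest neutrophil and macrophage sums of its group (766 TPM of macrophage markers), while treated mouse 12 at 12-weeks had 72.8 TPM of Saa3 with a lower macrophage sum (466 TPM). Lcn2, which neutrophils also express, was 254 TPM in treated mouse 12 at 34-weeks, against 28.8 and 8.49 TPM in the other treated mice of that time. It was lowest among Lipa-/- mice (2029 TPM) in mouse 9 at 12-weeks, whose neutrophil sum was the highest of all. In treated mice at 12-weeks Lcn2 was 3.10 to 7.04 TPM with a macrophage sum above that of all WT mice. The part of these cells in the levels of Saa3 and Lcn2 was not tested.

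**Figure D4:**
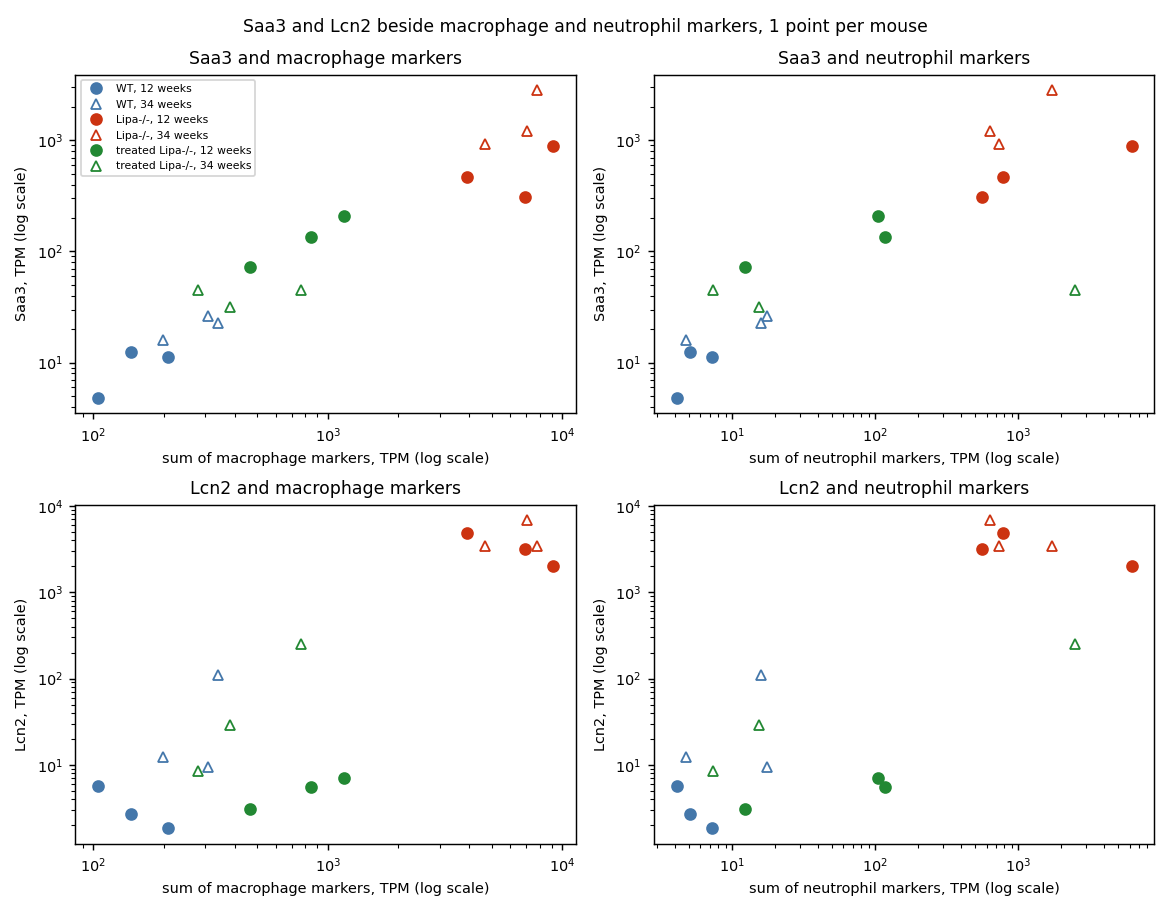
Saa3 (top) and Lcn2 (bottom), in TPM, against the summed TPM of 12 macrophage (left) and 14 neutrophil (right) markers, on log axes, 1 point per mouse; filled circles are 12-weeks and open triangles 34-weeks. Treated mice at 12-weeks lie between the other groups for Saa3 and at the level of WT mice for Lcn2, and treated mouse 12 at 34-weeks lies at 2476 TPM of neutrophil markers.

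The genes whose profile over the 18 mice was closest to each member were found, as a description, by the root mean square difference of centred log2 CPM, after the same scaling. Saa3 was closest to Cyba (0.714), Lyz2 (0.748) and Fam180a (0.76), where Cyba is a subunit of the phagocyte oxidase and Lyz2 the lysozyme of myeloid cells. Lcn2 was closest to Chil1 (0.911), and Orm2 to Cxcl14 (0.989), Cd14 (0.99) and Chil1 (1.00). Among the 10 members themselves, the closest pairs were Orm1 and Hpx (0.478), Hp and Hpx (0.61) and Orm1 and Hp (0.781), followed by Saa1 and Saa2 (0.788). This distance is not scaled to the spread of a gene. Standard deviations over the mice were 0.877 for Orm1, 0.967 for Hp and 0.985 for Hpx, against 1.91 for Saa1 and 2.37 for Saa2. No member came closer to Saa3 than Hp did (1.71), and the standard deviation of Saa3 itself over the mice was 2.49. Saa4 was closest to Psg23, Abhd14b and Cyp3a13 (0.367, 0.37 and 0.377).

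Other positive acute phase genes moved in part with them. Of 21 such genes, 11 were called higher and none lower in Lipa-/- mice at 12-weeks (median log2 difference 1.00), and 8 were higher and 2 lower at 34-weeks (0.75), beside the 20.2 and 20.5% of all genes called higher and 9.07 and 15.7% called lower at these times. Mt2, a metallothionein, rose most, from 2.93 ± 3.89 to 511 ± 344 CPM (SD, n = 3) at 12-weeks (7.43 ± 1.29 SE, adjusted p = 0.00024) and by 7.81 ± 1.31 at 34-weeks (adjusted p = 0.000126). The fibrinogen chains did not pass the test, and Fgg, the most abundant of the list, differed by -0.16 ± 0.364 at 12-weeks (adjusted p = 0.765) and -0.23 ± 0.364 at 34-weeks (adjusted p = 0.632). Serpina3m fell at 34-weeks (-1.59 ± 0.343, adjusted p = 0.00112). In treated mice 2 were higher and 1 lower than in WT mice at 12-weeks, no larger a share than the 13.6 and 12% of all genes, namely Il1rn and Apcs, serum amyloid P, by 1.80 ± 0.522 (adjusted p = 0.0157) and Serpina3n by -1.62 ± 0.393 (adjusted p = 0.00794), and at 34-weeks none was called in either direction. Of 11 negative acute phase genes, 1 fell at 12-weeks, close to the share of all genes, Ttr (transthyretin, -1.02 ± 0.393, adjusted p = 0.0484), and 5 fell at 34-weeks (15.7% of all genes), among them Serpina6, the corticosteroid carrier (-3.01 ± 0.432, adjusted p = 2.85e-05), and Alb, albumin (-1.10 ± 0.432, adjusted p = 0.0447).

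Of 10 inducing cytokines 7 were tested, and Il6, Il11 and Il22 had too few reads. In Lipa-/- mice the same 5 (Il1a, Tnf, Osm, Lif and Clcf1) were called higher at both time points, beside 20.2 and 20.5% of all genes. Ctf1, the most abundant of the list, went the other way and was called lower at 34-weeks (-1.26 ± 0.224, adjusted p = 0.000205). Its difference at 12-weeks (-0.59 ± 0.223) was not called, and Il1b was called at neither time. Tnf, which encodes tumour necrosis factor, was at 0.154 ± 0.00905 CPM (SD, n = 3) in WT mice at 12-weeks, near the level of 3 reads a library (0.143 to 0.161 CPM), and at 6.09 ± 0.873 CPM in Lipa-/- mice (adjusted p = 5.13e-07). At 34-weeks it was higher by 3.77 ± 0.435 (adjusted p = 3.29e-06). It was the only one of the list called in treated mice against WT mice, at 12-weeks (0.684 ± 0.362 CPM, adjusted p = 0.00775). Of 27 genes for cytokine receptors and their signalling, 10 were higher and 2 lower in Lipa-/- mice at 12-weeks, and 9 and 3 at 34-weeks, where the lower counts were near or under the share of all genes (9.07 and 15.7%). Relb, a subunit of NF-kB, rose by 3.60 ± 0.356 at 12-weeks (adjusted p = 9.65e-07), and Osmr, the receptor of oncostatin M, by 3.98 ± 0.357 at 34-weeks (adjusted p = 3.42e-07). Lifr, the receptor of leukaemia inhibitory factor, fell by 2.95 on the log2 scale at 12-weeks (SE 0.252, adjusted p = 2.46e-07), and Il1rap, the co-receptor of interleukin-1, by 3.28 at 34-weeks (SE 0.293, adjusted p = 3.33e-07). Cebpa, the most abundant of the list, encodes a C/EBP factor of the mature hepatocyte and was lower at 34-weeks (-1.47 ± 0.282, adjusted p = 0.00042).

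Of 15 receptors, ligands and downstream partners of the members, 6 were higher and 1 lower in Lipa-/- mice at 12-weeks, and 4 and 1 at 34-weeks, beside 20.2 and 20.5% of all genes called higher and 9.07 and 15.7% called lower. Ltf, lactoferrin of neutrophil granules and also on the neutrophil list, was at 0.453 ± 0.785 CPM (SD, n = 3) in WT and 41.6 ± 53.2 CPM in Lipa-/- mice at 12-weeks (adjusted p = 0.0139), and at 0.0918 ± 0.082 and 11.8 ± 9.41 CPM at 34-weeks (adjusted p = 0.0182). Cd163, through which macrophages take up the haptoglobin and haemoglobin complex, was lower in these mice, at 0.15 ± 0.0991 against 5.20 ± 0.785 CPM (SD, n = 3) at 12-weeks (adjusted p = 0.000463) and at 0.323 ± 0.316 against 8.98 ± 3.14 CPM at 34-weeks (adjusted p = 0.00028). It was also lower in treated than in WT mice at 12-weeks (0.445 ± 0.679 CPM, adjusted p = 0.0089). Lrp1, the receptor that clears hemopexin with haem, did not pass the test at either time (0.26 ± 0.419, adjusted p = 0.664, and 0.22 ± 0.419, adjusted p = 0.695).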

How the data were processed

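Livers of 18 mice, 3 in each of 6 groups, were compared. The authors quantified reads against the mouse transcriptome with Salmon, summarised them per gene with tximport, and deposited estimated counts, TPM (abundances divided by transcript length and scaled to the same total in each mouse) and average effective transcript lengths for each mouse. Per the labels, the submitters used R 4.3.0 and DESeq2 1.40.1. Deposited tables of the authors' comparisons hold fold changes and p-values and were not used.

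Here the estimated counts were rounded (19.4% of values were not whole), genes with more than 100 reads over all mice were kept, and all 6 groups were fitted together with edgeR 4.0.16 in R 4.3.3 (TMM factors, quasi-likelihood test, Benjamini-Hochberg adjustment over all tested genes). Values in CPM and SE come from that fit. A gene was called at an adjusted p under 0.05 and a log2 difference of at least 1 in size. Each mouse is a biological replicate. DESeq2 1.42.0, limma 3.58.1 on log2(TPM + 1) or log2(TPM + 0.1), other scalings, filters and thresholds, length offsets, and fits without each mouse were alternatives. Scripts were tested on simulated data. Counting error is small beside the spread between mice, except for genes near 3 reads a library.

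The members and the lists of other genes were chosen with earlier results of these data known. Genes given with values from each list were picked, per comparison, as the called genes of largest change up and down (mean over all mice of 1 CPM or more) and the most abundant gene. Not every gene so picked is given, and none is for treated against Lipa-/- mice. Ngp, S100a9 and the fibrinogen chains were named after their values were seen. For profiles, the 3 closest genes per member were taken. WT and treated mouse numbers recur between time points, and the correlations of deviations of same-numbered mice were 0.0761, -0.24 and 0.46 (WT) and -0.0765 and -0.253 (treated), so they were not treated as pairs.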

Additional observations from a re-analysis of the deposited data

Results flagged for a closer look

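The change from 12- to 34-weeks in the difference between treated and WT mice passed the interaction test of edgeR for 2 of the 10 genes. Of all genes 18.4% were called in either direction, so the share of members was close to that of all genes. The call alone is why these 2 genes are listed here. For Saa3 it was -3.79 on the log2 scale (adjusted p = 0.0237). The treated mice were at 147, 64.0 and 45.0 CPM at 12-weeks and at 8.57, 14.8 and 14.0 CPM at 34-weeks, without overlap, while WT mice went from 1.73 to 4.87 CPM to 4.63 to 11.9 CPM. For Hpx it was -2.37 (adjusted p = 0.0332), with treated mice at 22431, 15294 and 11017 CPM and then at 2613, 3758 and 8998 CPM. Time and study code cannot be told apart in this test, and different mice were sampled at each time.

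Among the other members the same test called none with edgeR. For Hp the adjusted p was 0.0667 with edgeR and 0.0172 with DESeq2, which called it, and edgeR called it without WT mouse 3 or treated mouse 12 of 34-weeks.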

How the results depend on the processing

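Over the settings tried, the 54 differences printed with a log2 value gave 1055 values, of which 941 kept their direction and their side of the threshold, 69 lost their call, 33 gained one and 12 changed sign. Over all 110 differences of the 10 members, including those not printed, 123 of 2240 values changed sign and 52 gained a call. Counts of called members moved by over 1.5 times in these cases. For treated against WT mice at 12-weeks, 4 members became 2 without TMM factors, at an adjusted p under 0.01, and with limma on log2(TPM + 1) or log2(TPM + 0.1). For treated against Lipa-/- mice at 12-weeks, 4 became 2 at an adjusted p under 0.01. Between time points in Lipa-/- mice, 0 became 1 with DESeq2, with or without length offsets. In treated mice, 3 became 5 with DESeq2, with or without length offsets, and 1 at an adjusted p under 0.01. The interaction of treatment and time gave 2, but 1 without TMM factors or with limma at either pseudocount, and 0 when only the groups compared were fitted or at an adjusted p under 0.01. The cause of these shifts was not tested, apart from the stricter threshold itself.

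With mouse number as a replicate block, no member was called between time points in treated mice or in their interaction with time (0 and 0), and the genes called over the whole table went from 4648 to 0 and from 2675 to 0, and from 47 to 5 between time points in WT mice. The numbers mark no shared animal, and 2 of the 3 treated mice of each time carry a number that recurs.

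Leaving out 1 mouse at a time, the counts of called members ranged from 7 to 8 and 4 to 6 (Lipa-/- against WT mice at 12- and 34-weeks), 2 to 4 and 0 to 0 (treated against WT mice), 2 to 5 and 4 to 7 (treated against Lipa-/- mice), 0 to 1 and 2 to 3 (time in Lipa-/- and treated mice), and 0 to 4 (interaction of treatment and time). The log2 difference of Lipa-/- from WT mice at 34-weeks ranged from -0.31 to 2.35 for Saa1 and from -0.15 to 1.19 for Orm1, negative without Lipa-/- mouse 5. That of treated from WT mice at 34-weeks ranged from -1.61 to 1.16 for Saa1, -0.95 to 2.13 for Saa2, -1.41 to 2.23 for Orm2 and -1.25 to 2.91 for Lcn2, negative without treated mouse 12. That of treated from Lipa-/- mice at 34-weeks ranged from -3.49 to 0.97 for Saa1 and from -4.43 to 0.38 for Saa2, positive without Lipa-/- mouse 5. Without both treated mouse 12 and WT mouse 2 of 34-weeks, chosen after seeing the data, treated mice differed from WT mice by -1.24 for Saa1, -0.21 for Saa2 and -0.85 for Orm2. The difference of Lcn2 in that fit was 0.44, so it stayed positive. Saa4 at 12-weeks changed sign, to 0.061, without TMM factors.

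Without TMM factors the share of all called genes that were higher went from 69 to 87.1% (Lipa-/- against WT mice, 12-weeks) and from 56.6 to 81.8% (34-weeks), and from 53.1 to 24.4% (treated against WT mice, 12-weeks), from 39 to 8.94% and 40.9 to 18.6% (treated against Lipa-/- mice), from 54.7 to 87.8% (time in treated mice) and from 46.6 to 81.3% (its interaction). Orm3 and, in WT and most treated mice, Lcn2 rest on few reads, so their small differences are the least precise.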

Other observations

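The ratio of the 2 carriers differed between groups. Per TPM of Hpx, the haem carrier, there were 0.673 to 0.873 TPM of Hp, the haemoglobin carrier, in WT mice at 12-weeks, 0.997 to 1.55 in Lipa-/- mice and 0.284 to 0.606 in treated mice. The 3 groups did not overlap, and the treated mice lay on the other side of the WT mice from the Lipa-/- mice. At 34-weeks the ratio was 0.77 to 1.12 in WT, 1.25 to 1.48 in Lipa-/- and 0.754 to 1.31 in treated mice, and the treated mice overlapped with both other groups. Library size cancels in this ratio, and it was computed after the values were seen, with no test.

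WT mouse 3 at 34-weeks was the lowest WT mouse of its time for all 10 members, while WT mouse 2 was the highest for Saa1, Saa2, Orm2, Orm3 and Lcn2. The summed cholangiocyte markers were 16.8 to 31.3 TPM in WT mice and 400 to 2366 TPM in Lipa-/- mice at 12-weeks. At 34-weeks they were 23.8 to 45.4 TPM in WT mice and 1193 to 2619 TPM in Lipa-/- mice. The summed erythroid markers, which include haemoglobin genes, were 352 to 734 TPM and 1377 to 2309 TPM at 34-weeks and overlapped at 12-weeks (198 to 596 and 400 to 538 TPM), none of the 4 tested was called higher at either time, and Alas2 was called lower at both. Adipocyte markers summed to at most 8.44 TPM in every mouse.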
